A study of Mus musculus with 20 samples.

Results

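The ID genes (Id1, Id2 and Id3) and 5 inhibitors of SMAD signalling (Smad6, Smad7, Ski, Skil and Tgif1) were followed in C2C12 myotubes exposed to H2O2. C2C12 is an established mouse myoblast line whose cells fuse into multinucleated myotubes when serum is lowered. After 96 h of differentiation the myotubes were given H2O2, a diffusible oxidant, for 2 h in 0.5% horse serum, at a dose of 1, 10, 100 or 1000 µM, and myotubes kept at 0 µM were the untreated controls. Each of the 20 samples, 4 per dose, was hybridised to its own Affymetrix Mouse Genome 430A array. Members were all probe sets whose single gene symbol in the platform annotation was 1 of the 8 names, which gave 8 of 12393 named genes and 11 of the 22690 probe sets on the array, 10 of them bright enough to be tested. The filter asked for a signal at or over the 40th percentile of the array (77.7 to 106 units) on 4 or more of the 20 arrays. The brightest probe set stands for its gene unless another is named.

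Bone morphogenetic proteins (BMPs) and the transforming growth factor beta (TGF-beta) branch signal through receptor kinases that phosphorylate SMAD proteins, which then enter the nucleus and act on target genes. ID proteins are products of BMP target genes. They lack a DNA-binding region and hold E proteins away from factors such as MYOD, and in myoblasts they oppose differentiation. SMAD6 and SMAD7 are inhibitory SMADs that are induced by the pathway and act back on its receptors. SKI and SnoN (the product of Skil) bind activated SMAD complexes and recruit corepressors, and TGIF1 is a homeodomain corepressor of SMAD-driven transcription.

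The cultures carried the markers of myotubes. All 16 myotube markers, among them Myh3, Ckm and Myog, were at or above the 40th percentile on all 20 arrays, as were 11 of 11 measured markers of cycling undifferentiated cells. Of 5 measured leukocyte markers 4 were under that level on every array. Of 8 fibroblast markers Col1a1, Col1a2, Col3a1 and Dcn reached it on 20 arrays and Pdgfra on 15, while Lum, Thy1 and Fap did so on 0. Of 5 adipocyte markers Cebpa and Lpl reached it on 19 arrays, and Adipoq, Fabp4 and Pparg on 0. The first principal component of all tested probe sets, 28.2% of the variance, set the 5 arrays called replicate 1, which stand once in each dose, apart from the other 15. Member results are therefore also given for replicates 2 to 4 alone and for the replicate 1 arrays, where there is 1 array per dose and no test. The 10 µM array in that set carries no replicate number in its title. The design text calls the replicates independent without saying whether they were separate cultures, so a p-value here weighs the scatter among arrays of a dose, part of which could be technical. In such bulk RNA, fewer cells of a type and less RNA per cell cannot be told apart.

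Some members changed, and each of those did so at 1 of the higher doses. Tgif1 rose at 100 µM. Smad7 and Skil rose at 1000 µM. Id2 and Id3 rose between 100 and 1000 µM. Their levels at 100 µM lay under those of untreated myotubes, but with all arrays these differences were not called. The rises of Id2 and Skil rest on 1 probe set each. With all arrays Id1, Smad6 and Ski passed no test. A change was called at a limma adjusted p under 0.05. Against untreated myotubes, 1 of 10 tested member probe sets was called at 100 µM, where 1.22% of all 14379 tested probe sets were called and 0.862% were called higher. At 1000 µM 2 of 10 were called, both higher, where 10.9% of all were called and 2.46% were called higher. From 10 to 100 µM 1 of 10 was called (0.932% of all, 0.772% higher), and from 100 to 1000 µM 2 of 10, both higher (4.35% of all, 0.744% higher). The F-test for any difference over the 5 doses called 3 of 10, namely Id2, Id3 and Tgif1, against 8.01% of all. The F-test call of Id2 ended without 1000 µM replicate 1, 2 or 4 (adjusted p from 0.0556 to 0.0807), and that of Id3 without untreated replicate 2, 3 or 4, 100 µM replicate 1 or 4, or 1000 µM replicate 2, 3 or 4 (0.0529 to 0.0936).

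No member was called at the low doses. At 1 µM 0 of 10 were called, as were 0% of all probe sets, and at 10 µM 0 of 10 were called and 0.00695% of all. At an unadjusted p under 0.05 there were 3 member probe sets at 1 µM, where 6.68% of all passed, and 3 at 10 µM, where 4.99% of all passed. Those at 1 µM were Id1, Id2 and Id3, all lower, and those at 10 µM were Id2 and Id3, lower, and Ski, higher. Over the 8 genes the median log2 difference from untreated was -0.13 at 1 µM and -0.11 at 10 µM, beside -0.02 at both doses over all tested probe sets. It was 0.01 at 100 µM (all probe sets -0.03) and 0.07 at 1000 µM (all probe sets -0.07).

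**Figure D1:**
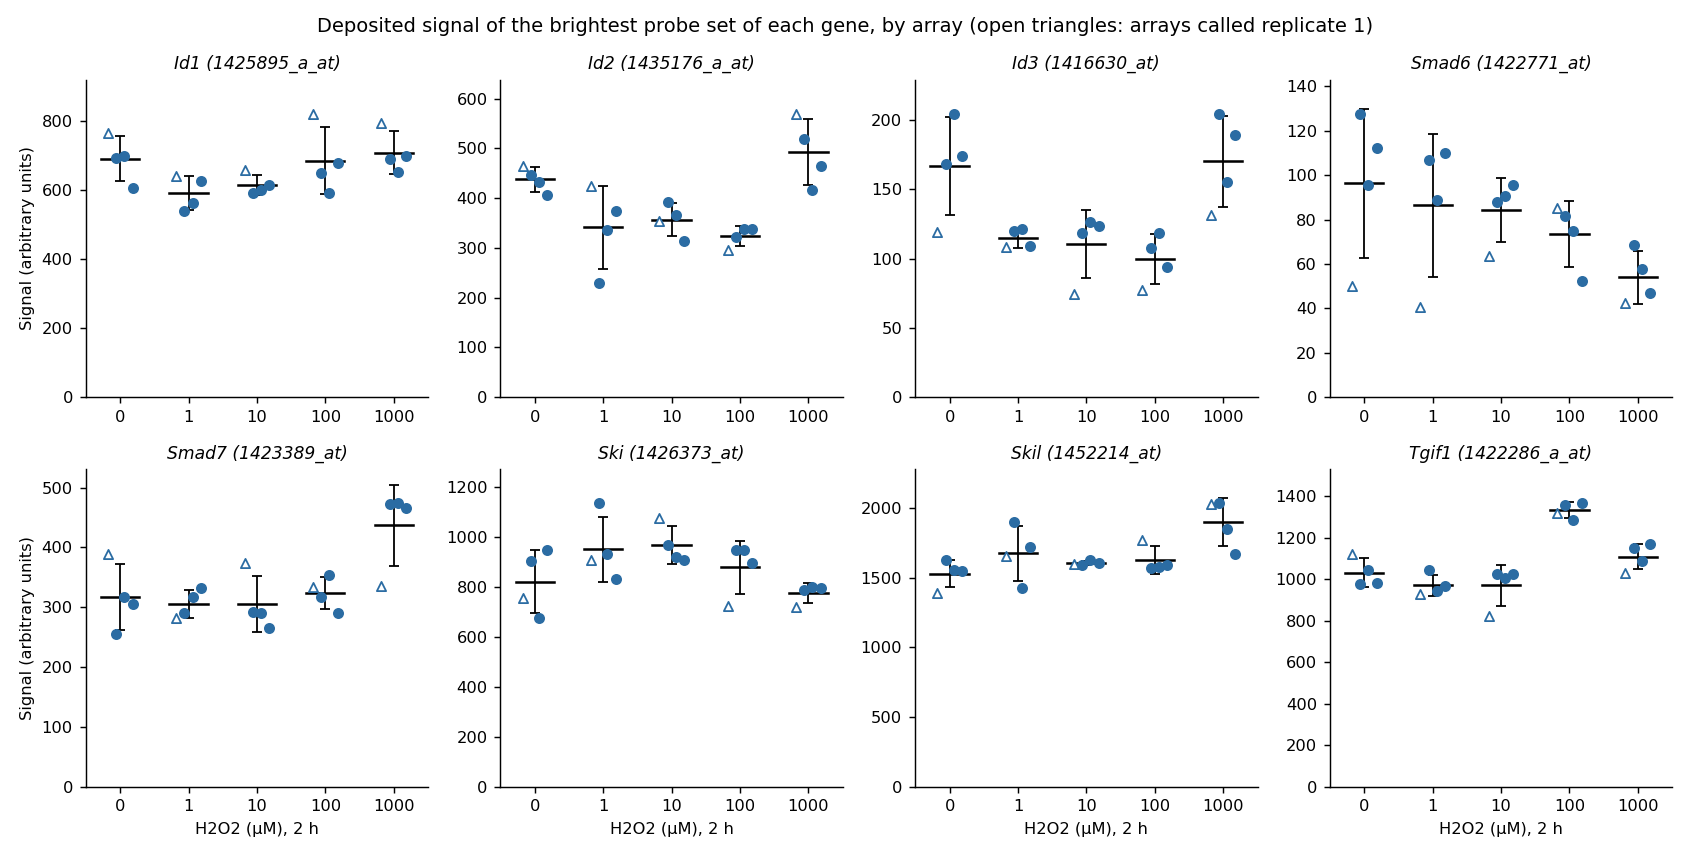
Deposited array signal (arbitrary units) of the brightest probe set of each gene against H2O2 dose; each point is 1 array, open triangles are the arrays called replicate 1, and black lines show the mean and SD of 4 arrays. Tgif1 stands highest at 100 µM (1284 to 1365 units), Smad7 and Skil at 1000 µM, and Id2 and Id3 are low at 1, 10 and 100 µM with levels at 1000 µM near those of untreated myotubes.

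Id2 lay lower at 100 µM than in untreated myotubes and rose from there to 1000 µM. Its signals, from set 1435176_a_at, in replicates 1 to 4 were 464, 446, 433 and 406 in untreated myotubes and 424, 229, 337 and 374 at 1 µM. They were 354, 393, 365 and 313 at 10 µM, 295, 322, 338 and 338 at 100 µM, and 569, 519, 416 and 464 at 1000 µM. All arrays at 10 and at 100 µM lay under all untreated arrays, those at 1 µM overlapped with them at 1 array, and those at 1000 µM overlapped with untreated but lay above every array at 100 µM. From 100 to 1000 µM Id2 rose by 0.60 ± 0.14 (log2 difference ± SE, adjusted p = 0.0197, n = 4). Against untreated, the log2 differences were -0.39 ± 0.14 at 1 µM (adjusted p = 0.649), -0.30 ± 0.14 at 10 µM (0.963), -0.44 ± 0.14 at 100 µM (0.188) and 0.16 ± 0.14 at 1000 µM (0.519), and none was called. The order of mean signals from the highest was 1000, 0, 10, 1 and 100 µM, and the test passed for none of the neighbours 1000 and 0 µM or 0 and 10 µM. The rise from 100 to 1000 µM was 0.48 in replicates 2 to 4 (adjusted p = 0.046) and 0.95 in the replicate 1 arrays, and the call ended without 100 µM replicate 1 (0.0582) or 1000 µM replicates 1 (0.0618) or 2 (0.0633).

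Id3 (set 1416630_at) followed a like course. In untreated myotubes its signals in replicates 1 to 4 were 119, 168, 204 and 174. They were 108, 120, 121 and 109 at 1 µM, 74.2, 118, 126 and 124 at 10 µM, 77.2, 108, 119 and 93.7 at 100 µM, and 132, 204, 155 and 189 at 1000 µM. All arrays at 100 µM lay under all untreated arrays and under all arrays at 1000 µM, while replicate 1 of the untreated group lay among the arrays of 1 and 10 µM. Id3 rose by 0.77 ± 0.20 from 100 to 1000 µM (adjusted p = 0.0339, n = 4), by 0.77 in replicates 2 to 4 (adjusted p = 0.00317) and by 0.77 in the replicate 1 arrays. At 100 µM the difference from untreated was -0.74 ± 0.20, or 1.67-fold lower, and missed the threshold with all arrays included (adjusted p = 0.0922). In replicates 2 to 4 it was -0.77 and was called (adjusted p = 0.00649), as it was without untreated replicate 1 alone (0.0344), and in the replicate 1 arrays it was -0.63. At 1 µM (-0.51 ± 0.20, adjusted p = 0.708) and 10 µM (-0.60 ± 0.20, 0.963) Id3 was not called, and at 1000 µM its level differed from untreated by 0.04 ± 0.20 (0.933; 95% interval of the log2 difference -0.39 to 0.46). The rise from 100 to 1000 µM was not called without 100 µM replicates 1 (0.109), 2 (0.0558) or 4 (0.0867) or 1000 µM replicates 2 (0.117), 3 (0.059) or 4 (0.103), nor with no filter on low values (0.0578). Id3 lay under the filter level on 1 array at 10 µM and 1 at 100 µM.

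Id1 (set 1425895_a_at) passed no test. Its signals ran from 605 to 764 in untreated myotubes, from 538 to 640 at 1 µM, from 591 to 657 at 10 µM, from 590 to 821 at 100 µM and from 651 to 795 at 1000 µM. Every dose overlapped with the untreated group. The log2 differences from untreated were -0.22 ± 0.10 at 1 µM (adjusted p = 0.727), -0.16 ± 0.10 at 10 µM (0.963), -0.02 ± 0.10 at 100 µM (0.974) and 0.04 ± 0.10 at 1000 µM (0.857). At 100 µM the 95% interval of the Id1 difference was -0.23 to 0.19 on the log2 scale, whereas that of Id3 was -1.16 to -0.31. Whether the ID genes differed from each other was not tested.

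The promoters of Id2 and Id3, the ID genes that were called, are shown from a table of RefSeq promoters in which 5 of the 8 genes were matched (Id2, Id3, Smad6, Ski and Tgif1). Each runs from 250 bases before to 50 bases after the start of transcription, 5′ to 3′ on the gene's strand, with build GRCm38.p6. Capitals mark GTCT on either strand (the core of the SMAD binding element, AGAC when read on the other strand) and also GGCGCC, a GC-rich element known from BMP-responsive promoters.
Id2, chr12:25096043-25096342, minus strand: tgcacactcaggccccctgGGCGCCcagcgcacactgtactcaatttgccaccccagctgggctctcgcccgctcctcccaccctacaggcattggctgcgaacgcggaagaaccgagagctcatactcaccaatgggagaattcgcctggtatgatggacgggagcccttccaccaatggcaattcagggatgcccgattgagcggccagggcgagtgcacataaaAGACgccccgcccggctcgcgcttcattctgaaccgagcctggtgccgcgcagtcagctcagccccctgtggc
Id3, chr4:136143572-136143871, plus strand: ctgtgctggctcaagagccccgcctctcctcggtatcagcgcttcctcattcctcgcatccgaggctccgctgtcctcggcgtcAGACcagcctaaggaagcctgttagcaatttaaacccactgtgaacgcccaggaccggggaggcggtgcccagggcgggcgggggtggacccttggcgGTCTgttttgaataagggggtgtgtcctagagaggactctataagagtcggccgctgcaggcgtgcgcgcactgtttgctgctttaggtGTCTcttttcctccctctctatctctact
The Id2 promoter held 1 GTCT and 1 GGCGCC on either strand, and that of Id3 held 3 GTCT and 0 GGCGCC. Among all 32851 promoters of the table, 88.0% held GTCT and 11.9% held GGCGCC, so a GTCT match is common in windows of this length. CCAAT was matched 3 times in Id2 and 0 times in Id3 (37.4% of all promoters had at least 1), and TGACG 0 times in Id2 and 1 time in Id3 (20.8% of all). CACGTG was in neither (7.15% of all). These matches describe the windows and say nothing of binding.

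Some markers of other cells were called in the comparisons in which the ID genes differed. The summed signal of the 11 measured markers of cycling undifferentiated cells ran from 12322 to 13748 in untreated arrays, from 13697 to 14910 at 1 µM, from 13561 to 14664 at 10 µM, from 11656 to 12235 at 100 µM and from 12323 to 14226 at 1000 µM. It was lowest at 100 µM, as Id2 and Id3 were, but not low at 1 or 10 µM. From 100 to 1000 µM 2 of these 11 markers rose, Aurka (0.47 ± 0.13) and Birc5 (0.42 ± 0.08), and 0 fell. Of all tested probe sets 0.744% were called higher in that step. The median log2 difference of the 11 was 0.17 there, beside -0.04 over all tested probe sets. Mki67 stood at -0.21 ± 0.10 in that step (adjusted p = 0.261). At 1000 µM against untreated 1 of the 11 rose, Birc5 (0.34 ± 0.08, adjusted p = 0.00823). In the same comparison 1 fell, Mki67 (-0.50 ± 0.10, adjusted p = 0.00268). At 100 µM against untreated 1 of 11 fell, Plk1 (-0.44 ± 0.10), where 0.355% of all probe sets were called lower. Reserve and satellite cell markers summed to 5642 to 6462 in untreated arrays, 5331 to 5922 at 100 µM and 5670 to 6021 at 1000 µM. Of these markers 6 were tested, and against untreated Spry1 alone was called, lower at 100 µM (-0.97 ± 0.10) and 1000 µM (-0.86 ± 0.10). The median log2 difference of the 6 was -0.08 at 100 µM (all probe sets -0.03) and 0.03 at 1000 µM (all probe sets -0.07). The defining genes Pax7 and Pax3 were under the filter level on every array. Of 2 tested markers of bone and cartilage 1 rose from 100 to 1000 µM and 0 fell. The part of all these cells in the ID results was not tested.

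Smad7, the inhibitory SMAD that acts on both the TGF-beta and the BMP branch, rose at 1000 µM (set 1423389_at). Its signals in replicates 1 to 4 were 390, 255, 317 and 306 in untreated myotubes and 335, 473, 474 and 466 at 1000 µM. In replicates 2 to 4 all arrays at 1000 µM lay above all arrays of the other doses, while replicate 1 at 1000 µM lay below replicate 1 of the untreated group. At 1, 10 and 100 µM the signals ran from 282 to 332, from 265 to 374 and from 291 to 355 and overlapped with the untreated group. Smad7 rose by 0.46 ± 0.14 at 1000 µM (1.38-fold, adjusted p = 0.0353, n = 4). The difference was 0.69 in replicates 2 to 4 (adjusted p = 0.000227) and -0.22 in the replicate 1 arrays. Leaving out untreated replicate 2 (0.121), 3 (0.0587) or 4 (0.0755), or 1000 µM replicate 2 (0.101), 3 (0.0993) or 4 (0.0954), ended the call, as did testing with no filter on low values (0.0546). From 100 to 1000 µM the difference was 0.42 ± 0.14 and was not called (adjusted p = 0.096), but it was called in replicates 2 to 4 (0.56, adjusted p = 0.0026).

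Smad6, which acts mainly on the BMP branch, was dim (set 1422771_at). Its signals in replicates 1 to 4 were 49.9, 128, 95.4 and 112 in untreated myotubes, 85.4, 81.7, 75.0 and 52.4 at 100 µM and 42.3, 68.7, 57.6 and 47.1 at 1000 µM. It reached the filter level on 9 of 20 arrays and on 0 of the 8 arrays at 100 and 1000 µM, so it was tested only because of its level at the other doses, and its level at 1000 µM is not measured exactly. At 1000 µM the arrays of replicates 2 to 4 lay under those of the untreated group, and untreated replicate 1 lay among them. The log2 difference at 1000 µM was -0.78 ± 0.32 and was not called (adjusted p = 0.13). It was -0.96 in replicates 2 to 4 and -0.24 in the replicate 1 arrays. The adjusted p was under the threshold in replicates 2 to 4 (0.00605) and without untreated replicate 1 alone (0.038), but since the filter favours such a difference it is not read as a change of Smad6.

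**Figure D2:**
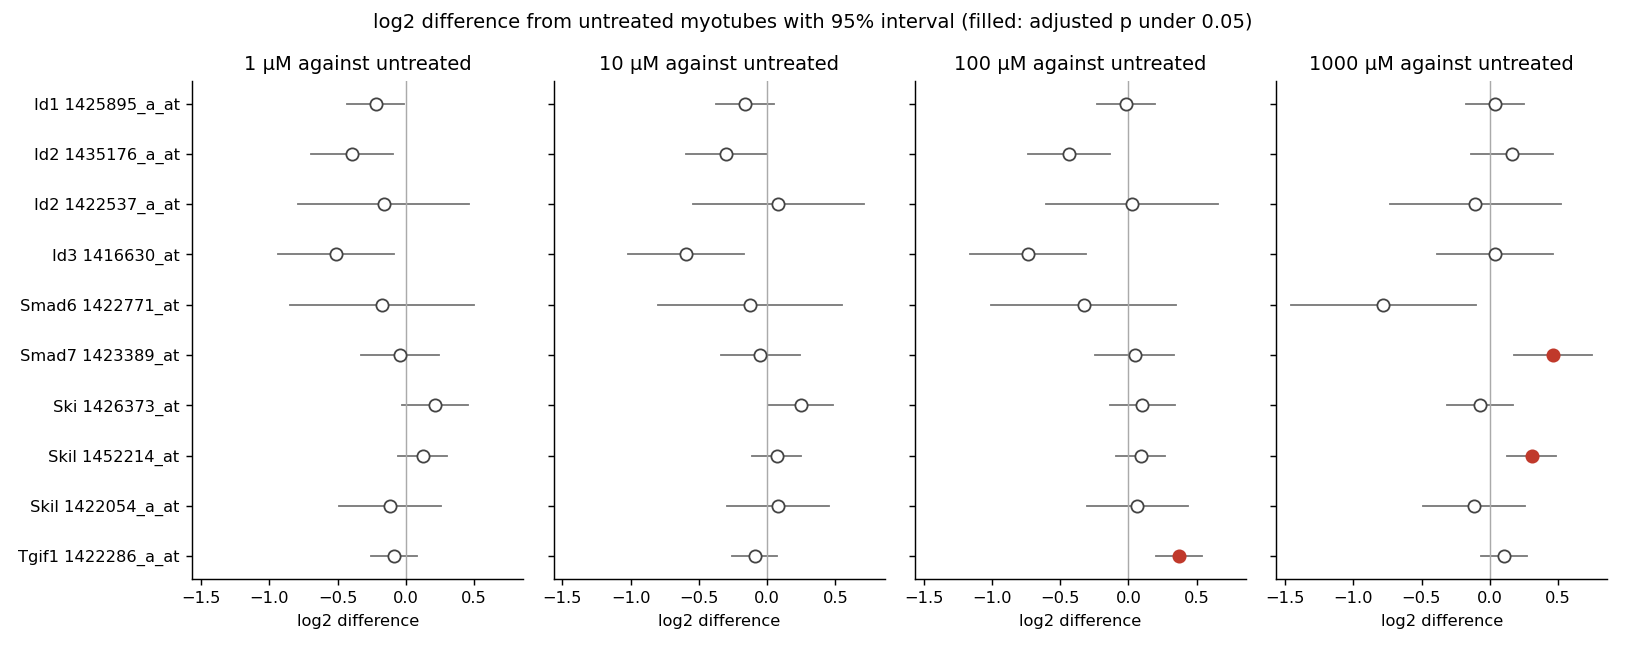
log2 difference from untreated myotubes (horizontal axis) of the 10 tested member probe sets at each dose; points are limma estimates from 4 arrays against 4, lines are 95% intervals, and filled points were called at an adjusted p under 0.05. The filled points are Tgif1 at 100 µM (0.37) and Smad7 (0.46) and Skil (0.31) at 1000 µM, while Id3 lies furthest to the left at 1, 10 and 100 µM and Smad6 at 1000 µM.

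Tgif1 (set 1422286_a_at) rose at 100 µM. Its signals in replicates 1 to 4 were 1122, 978, 1046 and 981 in untreated myotubes and 1316, 1359, 1284 and 1365 at 100 µM. They were 927, 1043, 944 and 968 at 1 µM, 823, 1026, 1006 and 1027 at 10 µM, and 1031, 1149, 1087 and 1167 at 1000 µM. Every array at 100 µM lay above every array of the other 4 doses, and those at 1, 10 and 1000 µM overlapped with the untreated arrays. Tgif1 rose by 0.37 ± 0.08 from untreated (1.29-fold, adjusted p = 0.0189, n = 4) and by 0.46 ± 0.08 from 10 to 100 µM (adjusted p = 0.00282). In replicates 2 to 4 these rises were 0.42 (adjusted p = 0.000621) and 0.39 (0.00112), and in the replicate 1 arrays 0.23 and 0.68. Leaving out untreated replicate 2 (0.0781) or 4 (0.0766), or 100 µM replicate 2 (0.068) or 4 (0.0682), ended the call against untreated, as did a fit of the compared groups alone (0.0682), whereas that from 10 µM was called without any single array of either group (adjusted p from 0.00486 to 0.0148). At 1000 µM Tgif1 was 0.10 ± 0.08 from untreated (adjusted p = 0.441) and -0.26 ± 0.08 from 100 µM (0.0639). The latter was called in replicates 2 to 4 (-0.24, adjusted p = 0.0213), as was the former (0.18, 0.0474), which was also called after median centring (0.31, 0.0185).

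The genes whose course over 19 numbered arrays was most like that of Tgif1 were Srxn1, Gsta4 and Pdk4. Likeness was Pearson's r of log2 signals after the mean of the arrays with the same replicate number was taken off, over 8159 genes, and is a description in which the arrays of a dose are shared by all genes. It was 0.949 for Srxn1, the sulfiredoxin that restores oxidised peroxiredoxins, 0.942 for Gsta4, a glutathione transferase, and 0.920 for Pdk4, a kinase that inhibits pyruvate dehydrogenase. At 100 µM these genes rose from untreated by 1.30 ± 0.16 (Srxn1), 1.05 ± 0.12 (Gsta4) and 0.72 ± 0.09 (Pdk4), beside 0.37 for Tgif1. From 100 to 1000 µM they fell by 1.13 ± 0.16, 0.78 ± 0.12 and 0.65 ± 0.09. The promoter at the most upstream of the 5 Tgif1 starts in RefSeq is shown in the same way, since Tgif1 was the member called in both comparisons of 100 µM with a lower dose.
Tgif1, chr17:70853483-70853782, minus strand: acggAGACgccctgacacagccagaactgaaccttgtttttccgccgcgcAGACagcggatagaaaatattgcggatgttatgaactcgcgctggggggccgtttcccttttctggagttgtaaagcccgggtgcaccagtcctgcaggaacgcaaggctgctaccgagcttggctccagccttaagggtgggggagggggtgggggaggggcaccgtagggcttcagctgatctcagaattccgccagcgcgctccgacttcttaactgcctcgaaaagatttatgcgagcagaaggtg
It held 2 matches to GTCT and 0 to any of the other motifs searched, and at the other 4 starts GTCT was matched 0 to 4 times.

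**Figure D3:**
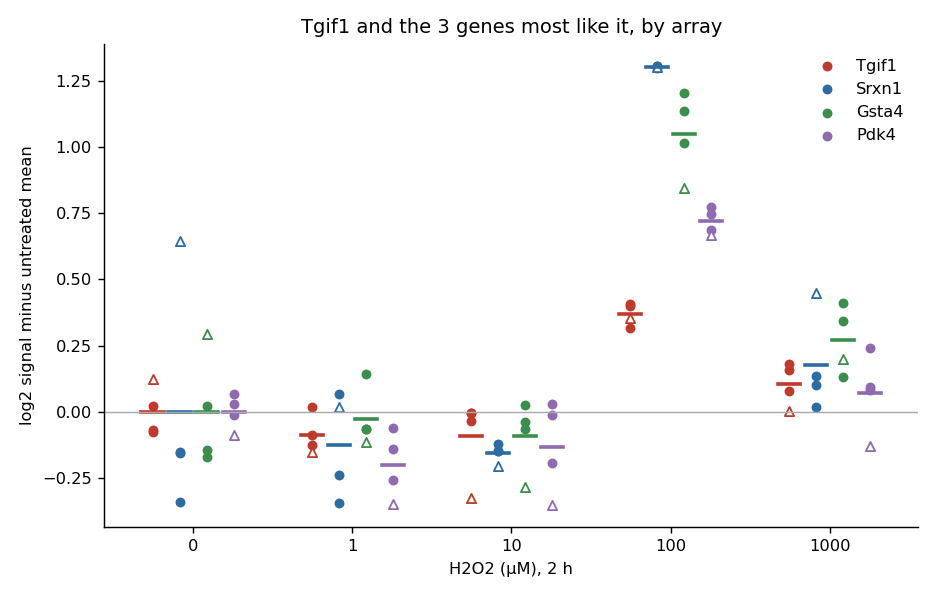
log2 signal minus the gene's untreated mean (vertical axis) for Tgif1 and the 3 genes most like it, against H2O2 dose; each point is 1 array, open triangles are the arrays called replicate 1, and bars are means of 4 arrays. All 4 genes stand highest at 100 µM, where the mean of Tgif1 is 0.37 and that of Srxn1 1.30, and fall back at 1000 µM to means from 0.07 to 0.27.

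Skil, the gene of the corepressor SnoN, rose at 1000 µM in its bright probe set, 1452214_at. The signals in replicates 1 to 4 were 1391, 1625, 1555 and 1546 in untreated myotubes and 2033, 2034, 1850 and 1673 at 1000 µM, and those groups did not overlap. At 1, 10 and 100 µM the signals ran from 1424 to 1900, from 1592 to 1626 and from 1567 to 1774 and overlapped with the untreated group. Skil rose by 0.31 ± 0.09 at 1000 µM (1.24-fold, adjusted p = 0.0255, n = 4). The difference was 0.23 in replicates 2 to 4, where it was not called (adjusted p = 0.0765), and 0.55 in the replicate 1 arrays. Quantile normalization (0.0727) ended the call, and so did leaving out untreated replicate 1 (0.0766) or 1000 µM replicate 1 (0.0662) or 2 (0.0842). The dimmer probe set of Skil (1422054_a_at) had 116 to 194 units in untreated arrays and 119 to 156 at 1000 µM. It differed from untreated by -0.12 ± 0.18 (adjusted p = 0.733, 95% interval -0.49 to 0.25). The dose difference at 1000 µM of the dimmer set minus that of the brighter was -0.43 ± 0.18. Its limma p was 0.0266 before adjustment and 0.4 after adjustment over 5112 such pairs. Unequal change was thus not shown after adjustment, and the rise of Skil rests on 1 probe set.

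Ski, the founding member of the SKI family (set 1426373_at), passed no test. Its signals ran from 676 to 947 in untreated myotubes, from 830 to 1134 at 1 µM, from 906 to 1073 at 10 µM, from 723 to 948 at 100 µM and from 717 to 800 at 1000 µM, and every dose overlapped with untreated. The log2 differences from untreated were 0.22 ± 0.12 at 1 µM, 0.25 ± 0.12 at 10 µM, 0.10 ± 0.12 at 100 µM and -0.07 ± 0.12 at 1000 µM (adjusted p = 0.785, 0.963, 0.812 and 0.754). At 1000 µM the 95% interval of the Ski difference was -0.31 to 0.17.

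The other probe sets of Id2 did not show the course of the brightest. Set 1422537_a_at had signals in replicates 1 to 4 of 314, 178, 123 and 144 in untreated myotubes, 110, 163, 235 and 253 at 100 µM and 182, 148, 140 and 195 at 1000 µM. Its groups overlapped at every dose, and from 100 to 1000 µM it differed by -0.13 ± 0.30 (adjusted p = 0.879), where the brightest set rose. The dose difference of this set minus that of the brightest was -0.73 ± 0.34 for that step (adjusted p = 0.58), so that a disagreement was not shown and the rise of Id2 rests on 1 probe set. Its replicate 1 arrays were the highest of the untreated group and the lowest at 1 and 100 µM. Set 1453596_at lay between 19.2 and 75.2 units, under the filter level on all 20 arrays, and was not tested.

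**Figure D4:**
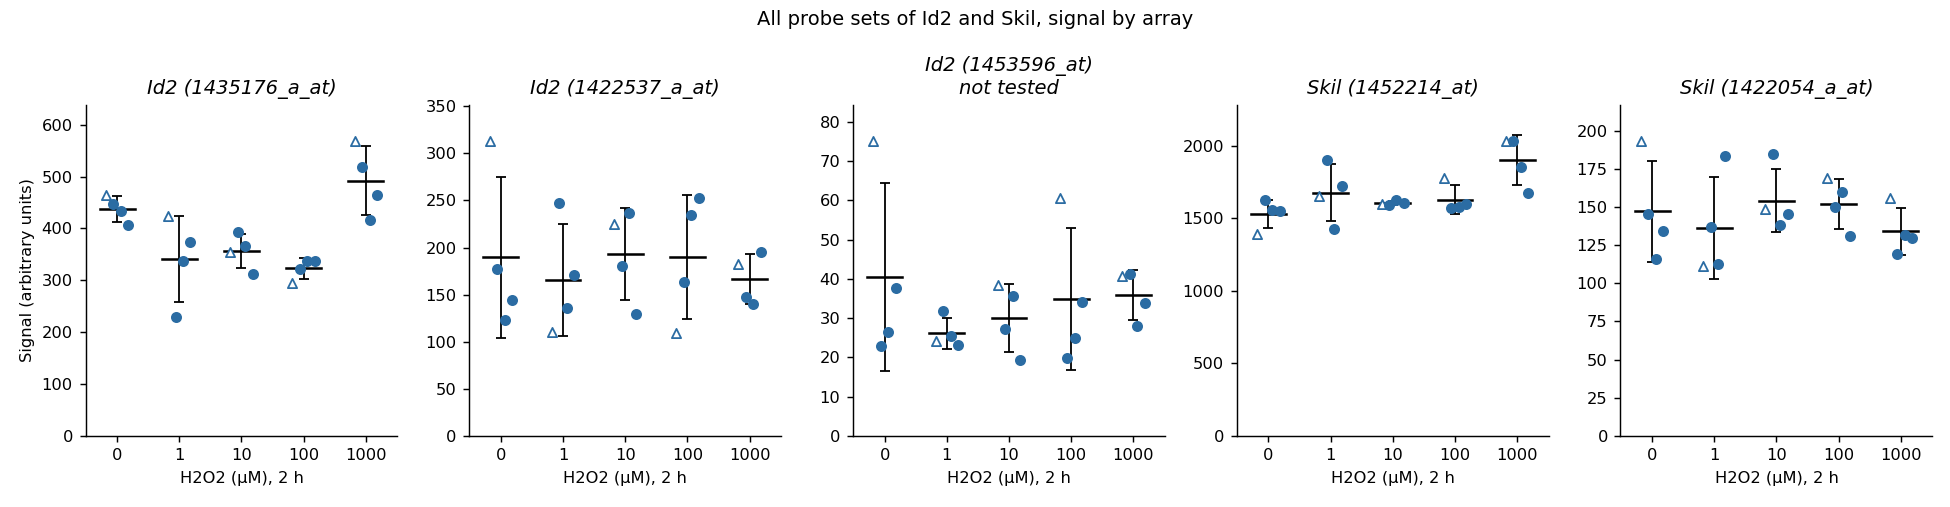
Deposited array signal (arbitrary units) of the 3 probe sets of Id2 and the 2 of Skil against H2O2 dose; each point is 1 array, open triangles are the arrays called replicate 1, and black lines show the mean and SD of 4 arrays. The brightest set of Id2 is low at 100 µM (295 to 338) and high at 1000 µM (416 to 569), while the wide spread of the second set (110 to 253 at 100 µM) shows no such step.

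The genes most like the other members were found in the same way over the 19 arrays, again as a description. For Id2 they were C1d (r = 0.892), Ube2v2 (0.888) and 2610001J05Rik (0.879), and for Id3 Fam117a (0.881), Hmgb2 (0.872) and Il13ra1 (0.855). For Id1 they were Ap3m2 (0.893), Itm2c (0.797) and Coro6 (0.789). For Smad7 they were Bnip3 (0.900), Faap20 (0.854) and Pls3 (0.850), and for Smad6 Rufy1 (0.825), Hnrnpul2 (0.822) and Polg (0.821). For Skil they were Bcap31 (0.858), Erp44 (0.857) and Ccnl1 (0.853), and for Ski Zmiz2 (0.83), Pitrm1 (0.771) and Invs (0.770). No member was among the 3 genes most like another member. Between members r was highest for Id2 and Id3 (0.780) and lowest for Id1 and Ski (-0.891).

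Groups that did not overlap were counted beside the calls. Among the 10 tested member probe sets this was so for 0 at 1 µM (3.78% of all tested probe sets), 1 at 10 µM (4.07%), 3 at 100 µM (8.98%) and 1 at 1000 µM (20.5%) against untreated. It was so for 1 between 10 and 100 µM (6.77%) and for 3 between 100 and 1000 µM (14.8%). The 3 at 100 µM were Id2 and Id3, lower, and Tgif1, higher, and the 3 between 100 and 1000 µM were the same genes in the opposite direction.

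Upstream of the members, 3 of 9 tested receptors fell at 1000 µM and 0 rose, where 8.48% of all tested probe sets were called lower: Acvr1b, a type I activin receptor (-0.61 ± 0.13, adjusted p = 0.0049), Acvr2a, a type II activin receptor (-0.59 ± 0.12, 0.00385), and Bmpr1a, a type I BMP receptor (-0.52 ± 0.07, 4.18e-05). The other 6 were not called and ranged from Tgfbr3 (-0.41) to Eng (0.37). The median log2 difference of the 9 was -0.41, beside -0.07 over all tested probe sets. From 100 to 1000 µM 2 of the 9 fell (3.6% of all were called lower), Acvr2a (-0.45 ± 0.12) and Bmpr1a (-0.41 ± 0.07). Of 5 tested SMAD signal carriers 0 were called at any dose. At 1000 µM Smad5 stood at -0.48 ± 0.16 (adjusted p = 0.0595) and Smad3 at -0.47 ± 0.19 (0.121), and the others ranged from -0.14 to 0.07. Of 7 tested ligands and 6 tested extracellular antagonists 0 were called in any of the 6 comparisons. The ligand Bmp4 stood at -0.999 ± 0.250 at 100 µM (adjusted p = 0.0546) and -0.47 ± 0.25 at 1000 µM (0.248).

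Of 8 tested corepressors and turnover factors outside the members, 1 fell at 1000 µM, Rnf111, the ubiquitin ligase Arkadia, which degrades SnoN and SMAD7 (-0.48 ± 0.14, adjusted p = 0.0293), and 0 rose, a share near that of all probe sets called lower. At 100 µM 0 of these 8 were called, and Tgif2, the close relative of Tgif1, stood at -0.06. Of 8 other tested targets of the pathway, 3 fell at 1000 µM and 0 rose, where 8.48% of all probe sets were called lower. They were Ccn1, a matrix-associated signalling protein (-1.09 ± 0.20, adjusted p = 0.00104), and the repressors Snai2 (-1.27 ± 0.30, 0.00951) and Snai1 (-0.41 ± 0.13, 0.0426). The other targets were not called and ranged from Msx1 (-0.31 ± 0.20) to Ccn2 (0.53 ± 0.26). The median log2 difference of the 8 was -0.10, beside -0.07 over all tested probe sets. Snai2 stood nearly as low at 1 µM (-1.12 ± 0.30, adjusted p = 0.421) and 10 µM (-1.10 ± 0.30, 0.941), where it was not called. At 100 µM it stood at -0.27 ± 0.30 (0.806). Snai1 also fell from 100 to 1000 µM (-0.54 ± 0.13, 0.0169). At 100 µM 0 of these targets were called. Among 9 tested helix-loop-helix genes, a list that holds partners of ID proteins and related factors, 1 fell at 10 µM, 2 at 100 µM and 2 at 1000 µM. At 10 µM 1 of all 14379 probe sets was called in either direction (0.00695%). It was that of Hes1 itself, so this share is no separate background for the list. Of all probe sets 0.355% and 8.48% were called lower at 100 and 1000 µM. Myod1, the myogenic regulator, fell by 0.71 ± 0.10 at 100 µM and 0.51 ± 0.10 at 1000 µM. Hes1 fell by 0.61 ± 0.09 at 10 µM, 0.42 ± 0.09 at 100 µM and 0.36 ± 0.09 at 1000 µM. The E protein genes Tcf3, Tcf4 and Tcf12 were not called, with differences from -0.20 to 0.17 against untreated. The comparisons with untreated share the same 4 control arrays.

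Scaling bears on the directions at 1000 µM. The median log2 signal of all probe sets other than controls lay lower there than in untreated arrays by -0.20, and centring on it raises every difference at that dose by that amount. The members called at 1000 µM were already higher, so centring could only raise them (Smad7 0.67, Skil 0.51) and is no check on their direction. It makes the falls of other genes given for that dose smaller, and their centred values are not given here. The directions of Ski (0.13) and of the dimmer set of Skil (0.08) turned at 1000 µM, as did that of Id1 at 100 µM (0.06), and none of these was called.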

How the data were processed

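RNA of 20 samples, 4 at each of 5 H2O2 doses, was measured on single arrays. The authors deposited 1 linear intensity per probe set and array, made with MAS5 (Affymetrix Microarray Suite), per the submitters' processing notes. Their 2% trimmed mean was 500.1 to 500.2 on every array, so a global scaling is included. The scaling target and the genome build are not given in the sources used here. Arrays carry no read depth, and 4 per group limits the precision. Detection calls were not used here.

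Signals were set to a common trimmed mean, floored at 1 and log2-transformed. Of 22690 probe sets 64 controls were left out and 14379 passed the filter. A single model of the 5 doses was fitted in limma 3.58.1 (R 4.3.3; lmFit, then eBayes with intensity trend, two-sided tests). In each comparison p-values were adjusted over the 14379 probe sets by Benjamini-Hochberg. The fit was tested on simulated data with independent noise on each array. Those data held no offset of the replicate 1 arrays, so the effect of such an offset was not tested there. Groups came from sample titles; 1 title with a misspelt unit was read as 1 µM. Symbols came from the platform annotation, and all 8 matched a RefSeq table by Entrez identifier. Named are all members, the 3 genes most like each, and called genes of the pathway lists (at most 4 per list and comparison). Marker genes, and Bmp4, Smad3, Smad5, Tgif2, Msx1, Ccn2 and the E protein genes, were named after their values were seen. The members and lists were chosen with earlier results of these data known. Alternatives covered scaling, filter, pseudocount, replicate block, replicates 2 to 4, array weights, trend, groups in the fit, a crossed rule after the design text, and leaving out each array.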

Additional observations from a re-analysis of the deposited data

Results flagged for a closer look

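Of 55 sets of 4 arrays (11 member probe sets at 5 doses), 5 held an array whose gap to the nearest other array was large for the range of its group (Dixon's 95% criterion, which chance meets in about 5% of groups). All 5 arrays were those called replicate 1. They were Id3 at 10 µM (74.2 units, the others 118 to 126), Smad7 at 1000 µM (334.9, the others 466 to 474), Ski at 1000 µM (717.4, the others 786 to 800), the bright probe set of Skil at 100 µM (1774.3, the others 1567 to 1595) and Tgif1 at 10 µM (822.6, the others 1006 to 1027). The cause was not tested.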

How the results depend on the processing

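At 1 and at 10 µM against untreated, 0 member probe sets were called under every alternative run. At 100 µM the count, 1 in the reported fit, was 2 in replicates 2 to 4, 3 with array weights, 0 with only the compared groups in the fit, 0 under a crossed rule (non-overlapping groups and means more than 1.75-fold apart), and 0 to 2 when single arrays were left out. At 1000 µM the reported 2 became 1 after quantile normalization, 1 with no filter on low values, 3 after median centring, 3 in replicates 2 to 4 (Smad6 included), 4 with array weights, 0 with only the compared groups, 0 under the crossed rule, and 0 to 2 without single arrays. From 10 to 100 µM the reported 1 became 0 under the crossed rule and stayed 1 under the other alternatives. From 100 to 1000 µM the reported 2 became 3 after quantile normalization, 3 after median centring, 1 with no filter, 4 in replicates 2 to 4, 5 with array weights, 1 with only the compared groups, 0 under the crossed rule, and 0 to 2 without single arrays. The F-test count of 3 became 5 after median centring, 5 in replicates 2 to 4, 6 with array weights, and 1 to 4 without single arrays. Fitting fewer groups leaves fewer residual degrees of freedom, and the crossed rule asks for a larger change by construction; for the other alternatives the cause was not tested.

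With replicate number as a block (replicate block), the counts were 2 at 100 µM, 2 at 1000 µM, 1 from 10 to 100 µM, 4 from 100 to 1000 µM and 4 in the F-test. The calls it added were Id3 at 100 µM (adjusted p = 0.00905), Smad7 (0.0493) and Tgif1 (0.0179) from 100 to 1000 µM, and Smad7 in the F-test (0.0235). The numbers did not meet the criterion for pairing, since only 24 of 36 same-numbered pairs of arrays had correlated deviations above 0.1 (range -0.12 to 0.51). Arrays numbered 1 accounted for 6 of these pairs (0.46 to 0.51), and 18 of 30 pairs with numbers 2 to 4 passed. Of 108 pairs of arrays with different numbers and doses 34 passed (range -0.39 to 0.31), so same-numbered arrays did share deviations more often. Values that were not called changed sign as follows. Id1 at 100 µM became 0.016 after quantile normalization, 0.061 after median centring and -0.11 to 0.051 without single arrays. At 1000 µM, Ski became 0.13 after median centring, and the dimmer set of Skil 0.087 after quantile normalization and 0.084 after median centring. The second set of Id2 became 0.021 from 100 to 1000 µM after quantile normalization. Without single arrays the values at 1000 µM ran from -0.024 to 0.089 for Id1, from -0.12 to 0.15 for Id3, from -0.16 to 0.0026 for Ski and from -0.22 to 0.021 for the dimmer set of Skil, and those of the second set of Id2 from -0.37 to 0.031. The other reported differences of members kept their sign. Of 35 member comparisons whose difference is not given, 17 changed sign in at least 1 alternative and 0 were called in any. Signals near background, as for Smad6, limit what can be resolved.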
